A study of Arabidopsis thaliana with 27 samples.

Results

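The xyloglucan endotransglucosylase/hydrolase family of Arabidopsis, XTH1 to XTH33, was followed across treatments and organs. The members were the 33 rows of the count table that carry the locus identifiers of XTH1 to XTH33, out of 32833 genes in the table. They were taken by identifier and not by value, although earlier results of these data were known. Pools of intact seedlings of ecotype Col-0 (Col-O in the labels), 3 days old and grown in shaken liquid medium with sucrose, had been treated with NAE 18:3, with NAE 18:2 or with DMSO alone, and roots, cotyledons or whole seedlings were collected afterwards. NAE 18:3 (N-linolenoylethanolamine) was used at 70 µM per the labels and at 80 µM per the series description, NAE 18:2 (N-linoleoylethanolamine) at 40 µM, and the control was 0.2% DMSO. Exposure lasted 1 h in the labels, and the study's text also gives longer times. Each of the 9 groups had 3 libraries, and no genotype other than the wild type was included. Both compounds are fatty acid ethanolamides and differ by a double bond in the acyl chain. Because their doses also differed, compound and dose cannot be told apart in any comparison between them.

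Xyloglucan is the main hemicellulose of the primary wall in Arabidopsis, a glucan chain with xylose side chains that coats and tethers cellulose. XTH enzymes cut the xyloglucan chain and either join the new end to another xyloglucan (transglucosylation) or release it (hydrolysis). They are known for their part in wall loosening and wall strengthening as cells expand, in root hair outgrowth, and in responses to touch, shade and hormones. Transglucosylation is the common activity in the family, and XTH31 and XTH32 belong to a small subgroup associated with hydrolysis.

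Library totals ranged from 17781269 to 38635934 counts, with a median of 26436942. Levels are given as CPM (counts scaled to library size), and a member or other gene was called where the Benjamini-Hochberg adjusted p of edgeR's quasi-likelihood test was below 0.01 and the absolute log2 fold change was above 1. Organ labels were checked against markers: 10 photosynthesis genes summed to 36.4 to 70.5 CPM in 8 of the 9 root libraries and to between 46098 and 61164 CPM in the 9 cotyledon libraries. The remaining root library, replicate 3 of NAE 18:3 roots, held 706 CPM of them, and root results that rest on it are also given without it. A list of 10 root markers did not separate the organs by its sum. That sum was 2249 to 3702 CPM in cotyledon libraries and 788 to 4752 CPM in root libraries. Of these 10 markers, 1 to 4 were at 0 counts in each cotyledon library and none in any root library. A list of 6 root hair markers summed to at most 0.563 CPM in cotyledon libraries and to at least 7.91 CPM in root libraries. Replicates 1 and 3 of NAE 18:2 seedlings differed by little more than sampling noise (chi-square per degree of freedom 1.87, against 9.89 for the next closest pair of replicates), so seedling results are also given with these 2 libraries summed. In tissue samples, fewer cells of a type and less RNA per cell cannot be told apart.

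The family spanned the full range from silent to abundant. XTH1 (AT4G13080), XTH2 (AT4G13090) and XTH3 (AT3G25050) stayed at or below 0.115 CPM in all 27 libraries and passed the filter on low counts in no fit. Of the other 30 members, 27 were tested in roots, 25 in cotyledons and 30 in seedlings. For 31 members, none of the 75-base stretches of their longest RefSeq transcripts occurs exactly in another annotated transcript. XTH15 (AT4G14130) overlaps AT4G14120 on the opposite strand over 27.8% of its length, and since the strand setting of the counting is not stated, its values could include reads of that gene. XTH21 (AT2G18800) shares 4.01% of its 75-base stretches with AT2G12660. Several members are direct neighbours in the genome, with no other protein-coding gene between XTH23 and XTH14 on chromosome 4, between XTH24, XTH18 and XTH19 on chromosome 4, or between XTH13, XTH25 and XTH22 on chromosome 5.

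**Figure D1:**
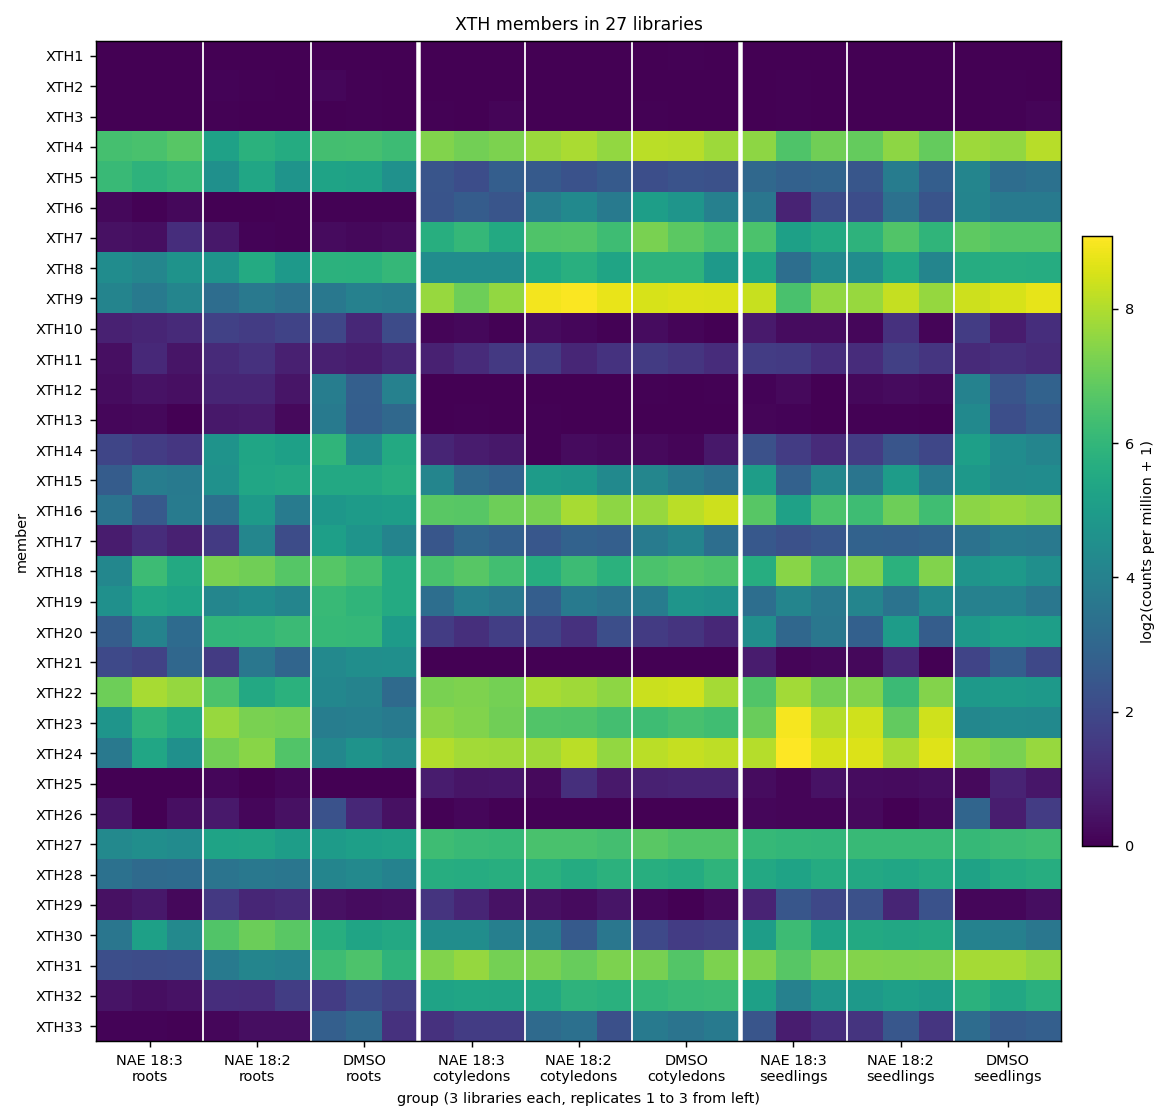
Level of each member (rows) in each of the 27 libraries (columns, 3 per group), as log2(CPM + 1), with darker cells lower. XTH1, XTH2 and XTH3 are dark throughout, XTH12 and XTH13 are lightest in DMSO roots and DMSO seedlings, and XTH4, XTH9, XTH16, XTH24 and XTH31 are among the lightest rows in DMSO cotyledons and DMSO seedlings.

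Without NAE, many members differed in level between roots and cotyledons. In DMSO roots against DMSO cotyledons, 11 of 30 tested members were higher and 12 were lower, where 20% of 21643 tested genes were called higher and 22.4% lower. The median log2 difference of the members was -0.55, against 0.01 for all tested genes. Per kilobase of transcript, the leading members in DMSO roots were XTH18 (61.0 CPM per kb), XTH31 (54.3 CPM per kb), XTH4 (51.4 CPM per kb) and XTH8 (48.2 CPM per kb), and the ranges of these 4 over the libraries overlapped. In DMSO cotyledons the leading members were XTH9 (248 CPM per kb), XTH24 (244 CPM per kb), XTH16 (225 CPM per kb) and XTH22 (190 CPM per kb), and each overlapped with the next in this order over the libraries.

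**Figure D2:**
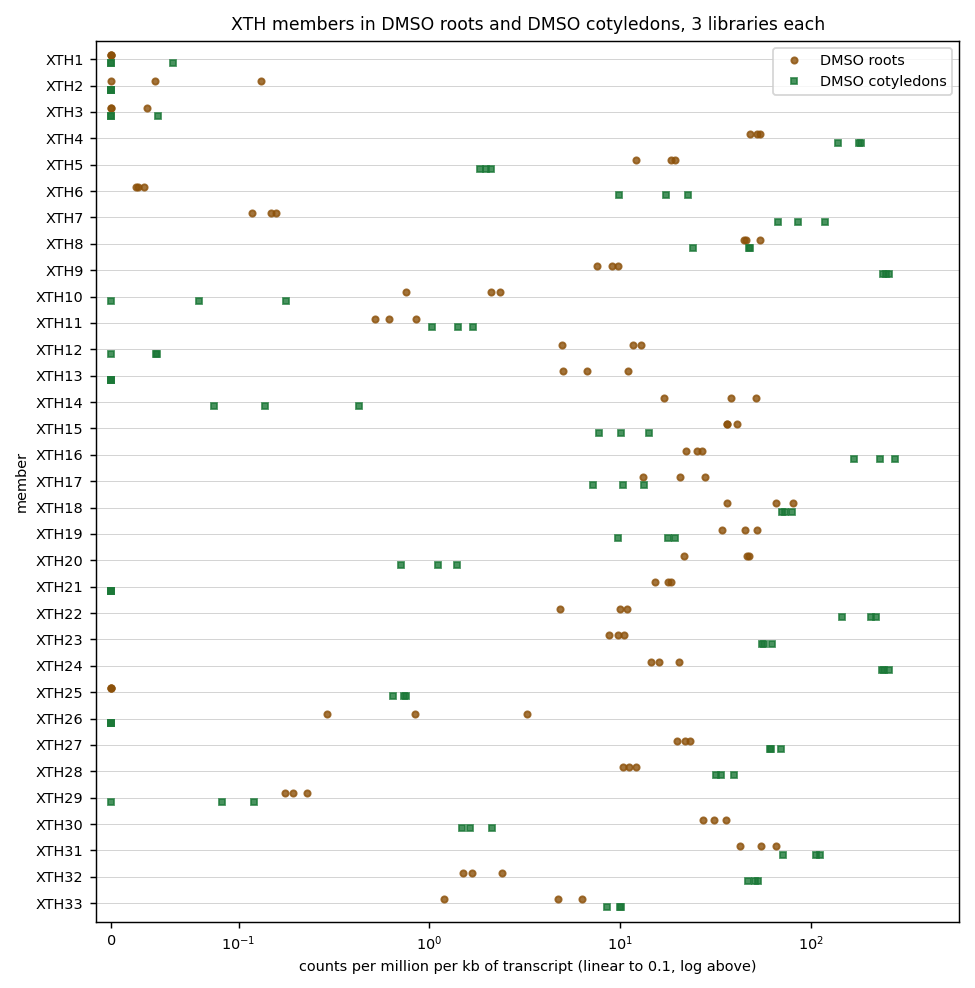
Level of each member in the 3 DMSO root libraries (brown circles) and the 3 DMSO cotyledon libraries (green squares), in CPM per kilobase of the longest transcript on an axis that is linear to 0.1 and logarithmic above. XTH12, XTH13, XTH14, XTH20, XTH21 and XTH30 lie further right in roots, and XTH6, XTH7, XTH9, XTH22, XTH24 and XTH32 in cotyledons.

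The members on the root side included those known from root hairs and growing roots. XTH12 (AT5G57530), whose transcript is known from the root hair zone, had 13.3, 5.71 and 14.8 CPM in DMSO roots and 2 counts in all 3 DMSO cotyledon libraries together, a ratio of 389 (95% counting interval 107 to 3214). XTH13 (AT5G57540), its close relative, had 12.2, 5.56 and 7.45 CPM in DMSO roots and no count in DMSO cotyledons, which makes it at least 200.1-fold higher in roots against a floor of 3 counts over the group. The same floor puts XTH21, an enzyme known from primary root growth, at least 479-fold higher in DMSO roots, and XTH26 (AT4G28850), also known from root hairs, at least 43.6-fold higher. XTH14 (AT4G25820), a root hair zone enzyme as well, had 59.9, 19.7 and 44.3 CPM in DMSO roots against 0.161, 0.094 and 0.497 CPM in DMSO cotyledons (log2 fold change 7.32 ± 0.60 SE, edgeR adjusted p = 5.28e-10).

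XTH5 (AT5G13870), XTH10 (AT2G14620), XTH15, XTH19 (AT4G30290), XTH20 (AT5G48070) and XTH30 (AT1G32170) were also higher in DMSO roots, by log2 fold changes of 1.49 (XTH19) to 5.17 (XTH20). XTH30, known for its role in salt sensitivity, had 50.4, 38.2 and 43.4 CPM in DMSO roots against 2.98, 2.07 and 2.28 CPM in DMSO cotyledons. The call of XTH15 was lost without replicate 2 or replicate 3 of DMSO cotyledons, with an adjusted p of up to 0.0169, and the other 22 calls held without any 1 of the 6 libraries.

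On the cotyledon side, XTH9 (AT4G03210), known from shoot apices and from cambium, had 11.5, 14.9 and 13.9 CPM in DMSO roots against 365, 389 and 377 CPM in DMSO cotyledons. XTH7 (AT4G37800) was close to absent from DMSO roots, at 0.202, 0.151 and 0.19 CPM, against 152, 111 and 86.9 CPM in DMSO cotyledons (log2 fold change -9.29 ± 0.58 SE, adjusted p = 6.7e-12 in edgeR). XTH6 (AT5G65730) had 3 counts in the DMSO root libraries together and was 769-fold lower there (95% counting interval 263 to 3733), while XTH25 (AT5G57550), at 0 in DMSO roots, was at least 26.3-fold lower. The remaining calls on this side were XTH4 (AT2G06850), XTH16 (AT3G23730), XTH22 (AT5G57560, TCH4), XTH23 (AT4G25810), XTH24 (AT4G30270), XTH27 (AT2G01850), XTH28 (AT1G14720) and XTH32 (AT2G36870), with log2 fold changes of -1.55 (XTH27) to -4.74 (XTH32). The organs overlapped for XTH8 (AT1G11545), XTH17 (AT1G65310) and XTH18 (AT4G30280), which were not called. XTH31 was not called either, with a mean of 96.3 CPM per kb in DMSO cotyledons and 54.3 CPM per kb in DMSO roots.

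In NAE 18:3 roots many members were lower than in DMSO roots and few were higher. Among 27 tested members, 13 were lower in NAE 18:3 roots than in DMSO roots and 2 were higher, where 16.8% of 20138 tested genes were called lower and 5.94% higher. The median log2 fold change of the members was -1.51, against 0.00 for all tested genes. The summed level of the 33 members was 473, 739 and 658 CPM in NAE 18:3 roots and 870, 799 and 687 CPM in DMSO roots, so the groups overlapped.

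The same sum was 986, 1093 and 872 CPM in NAE 18:2 roots, the lowest of these close to level with the highest DMSO root library (870 CPM). The sums were not tested. In roots treated with NAE 18:2, 5 of 27 tested members were lower and 4 were higher than in DMSO roots, where 3.03% of tested genes were called lower and 5.68% higher. The median log2 fold change of the members was -0.49, against -0.02 for all tested genes. Both comparisons were made with the same 3 DMSO libraries. Under both compounds in roots, XTH12, XTH13, XTH31 and XTH33 were called lower and XTH22 and XTH23 higher. The upstream sequences of 4 of these members, XTH12, XTH13, XTH22 and XTH23, are shown. Each is the stretch of 250 bases that ends 1 base before the RefSeq gene start in TAIR10.1, written on the strand of the gene: chr5:23301690-23301939 (minus strand), chr5:23304096-23304345 (minus strand), chr5:23308681-23308930 (minus strand) and chr4:13128144-13128393 (plus strand). Capitals mark matches on either strand to a TATA box (TATAAA), a W-box (TTGACC or TTGACT), a rapid stress response element (CGCGTT) or a G-box (CACGTG).
XTH12: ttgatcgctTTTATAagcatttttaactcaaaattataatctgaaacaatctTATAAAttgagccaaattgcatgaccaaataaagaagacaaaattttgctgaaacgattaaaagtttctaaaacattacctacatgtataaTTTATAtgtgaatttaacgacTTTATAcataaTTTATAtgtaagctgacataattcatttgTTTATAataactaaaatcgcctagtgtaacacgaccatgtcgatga
XTH13: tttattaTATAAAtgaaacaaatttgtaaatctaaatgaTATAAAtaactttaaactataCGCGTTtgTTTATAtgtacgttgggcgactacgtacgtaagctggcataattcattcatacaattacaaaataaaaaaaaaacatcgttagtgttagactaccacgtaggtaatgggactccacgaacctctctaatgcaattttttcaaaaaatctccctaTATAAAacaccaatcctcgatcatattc
XTH22: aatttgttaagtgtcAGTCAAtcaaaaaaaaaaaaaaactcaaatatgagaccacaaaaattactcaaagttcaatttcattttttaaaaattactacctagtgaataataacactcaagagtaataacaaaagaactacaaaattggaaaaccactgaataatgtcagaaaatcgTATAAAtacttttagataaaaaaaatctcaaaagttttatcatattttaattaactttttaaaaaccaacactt
XTH23: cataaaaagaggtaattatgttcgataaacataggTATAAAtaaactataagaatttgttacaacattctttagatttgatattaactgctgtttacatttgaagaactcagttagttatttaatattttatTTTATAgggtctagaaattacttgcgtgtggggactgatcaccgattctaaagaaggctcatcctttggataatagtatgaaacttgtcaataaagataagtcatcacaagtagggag

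The letters TATAAA were found on either strand in 18 of 33 member windows (54.5%), and in 47.3% of the windows of 27443 protein-coding genes. W-box letters were found in 6 member windows (18.2%, against 28.4% of all genes), among them XTH22. The rapid stress response letters were in 3 member windows (9.09%, against 2.59%), those of XTH13, XTH18 and XTH20. No member window held the G-box letters, found in 6.49% of all windows, or the root hair element, found in 0.754%. Matches were counted for each motif on its own, also where matches of 2 motifs overlapped. These counts describe the letters in this window and say nothing of the factors that bind them.

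XTH12 and XTH13, the root hair members, fell in roots under both compounds. XTH12 had 0.224, 0.373 and 0.297 CPM in NAE 18:3 roots and 0.939, 0.908 and 0.434 CPM in NAE 18:2 roots, against 13.3, 5.71 and 14.8 CPM in DMSO roots. No treated library reached the lowest DMSO library, and the log2 fold changes were -5.40 ± 0.48 (SE, adjusted p = 4.53e-05 in edgeR) for NAE 18:3 and -3.93 ± 0.43 (adjusted p = 0.000422) for NAE 18:2. XTH13 had 0.112, 0.136 and 0 CPM in NAE 18:3 roots and 0.487, 0.568 and 0.181 CPM in NAE 18:2 roots, against 12.2, 5.56 and 7.45 CPM in DMSO roots. Its log2 fold changes were -6.65 ± 0.63 and -4.39 ± 0.51, and like those of XTH12 they were called without any 1 library.

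XTH14, the third root hair zone member, had 2.72, 2.07 and 1.73 CPM in NAE 18:3 roots and 24.2, 39.8 and 34.6 CPM in NAE 18:2 roots, against 59.9, 19.7 and 44.3 CPM in DMSO roots. It fell under NAE 18:3 (log2 fold change -4.42 ± 0.44, adjusted p = 7.79e-05 in edgeR), while NAE 18:2 roots overlapped with DMSO roots (-0.38 ± 0.36), and the difference between the compounds was itself called (-4.04 ± 0.43, adjusted p = 0.000237). XTH26 had at most 0.447 CPM in NAE 18:3 roots and 0.556 CPM in NAE 18:2 roots, and was spread from 0.342 to 3.83 CPM in DMSO roots, and was not called.

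**Figure D3:**
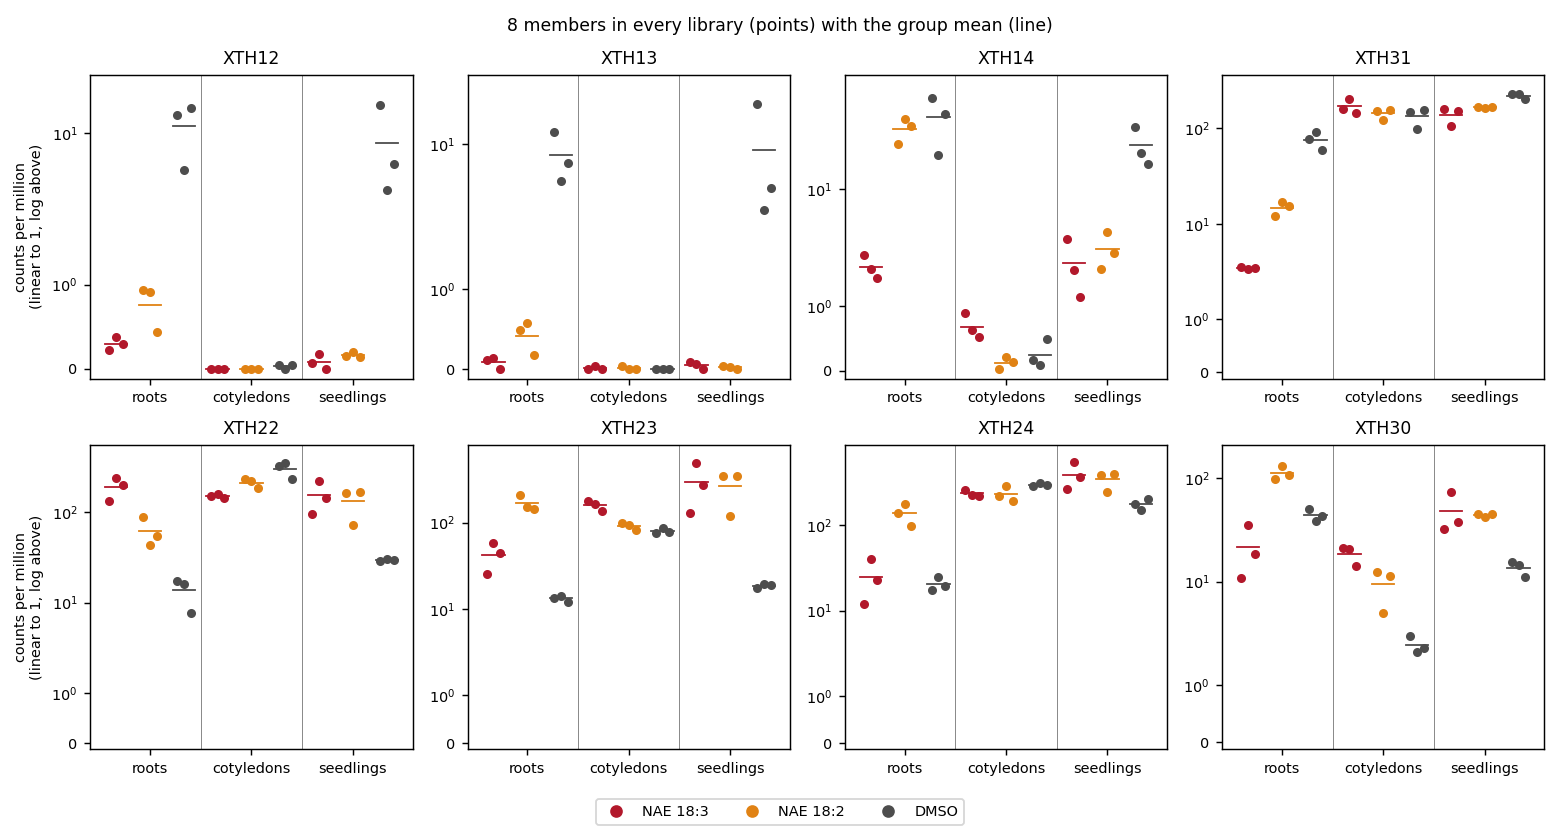
CPM of 8 members in each library (points, with a line at the group mean), on an axis that is linear to 1 and logarithmic above, by organ and from left to right for NAE 18:3, for NAE 18:2 and for DMSO. In roots the treated points of XTH12, XTH13 and XTH31 lie below all DMSO points and those of XTH22 and XTH23 above them, while in cotyledons XTH22 lies lower under NAE 18:3 (143 to 158 CPM) than under DMSO (232 to 347 CPM).

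Root hair and xylem markers were also lower in NAE 18:3 roots, while in NAE 18:2 roots the sums of both lists overlapped with DMSO roots. The 6 root hair markers, RHD6, RSL4, COBL9, EXPA7, EXPA18 and PRP3, summed to 7.91 to 10.9 CPM in NAE 18:3 roots and to 32.8 to 74.0 CPM in NAE 18:2 roots, against 72.4 to 198 CPM in DMSO roots, and none was at 0 in any root library. All 6 were called lower under NAE 18:3 and 1 of 6, PRP3, under NAE 18:2. The 5 xylem markers were XCP1, XCP2, CESA4, CESA7 and CESA8. They summed to 10.4 to 19.0 CPM in NAE 18:3 roots and 111 to 160 CPM in NAE 18:2 roots, against 61.3 to 143 CPM in DMSO roots. The study had already reported CESA4, CESA7 and CESA8 as lower in NAE 18:3 roots, from the same libraries. It had also reported decreases in XTH transcripts under both compounds, and XTH13 was among the genes it measured by RT-qPCR in new seedling RNA. Of the 10 root markers, 5 were called lower under NAE 18:3, CASP1, TIP2;3, NRT2.1, IRT1 and PYK10, while SHR, SCR, PLT1, PLT2 and WOX5 were not (log2 fold changes of -0.28 for WOX5 to 0.37 for PLT2). Seed storage and oleosin markers summed to 21.3 CPM in replicate 1 of NAE 18:2 roots, 5.15 CPM in replicate 2 and at most 0.217 CPM in the other root libraries, and their part was not tested. The part of root hair, xylem and other differentiated root cells in the XTH falls was not tested.

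**Figure D4:**
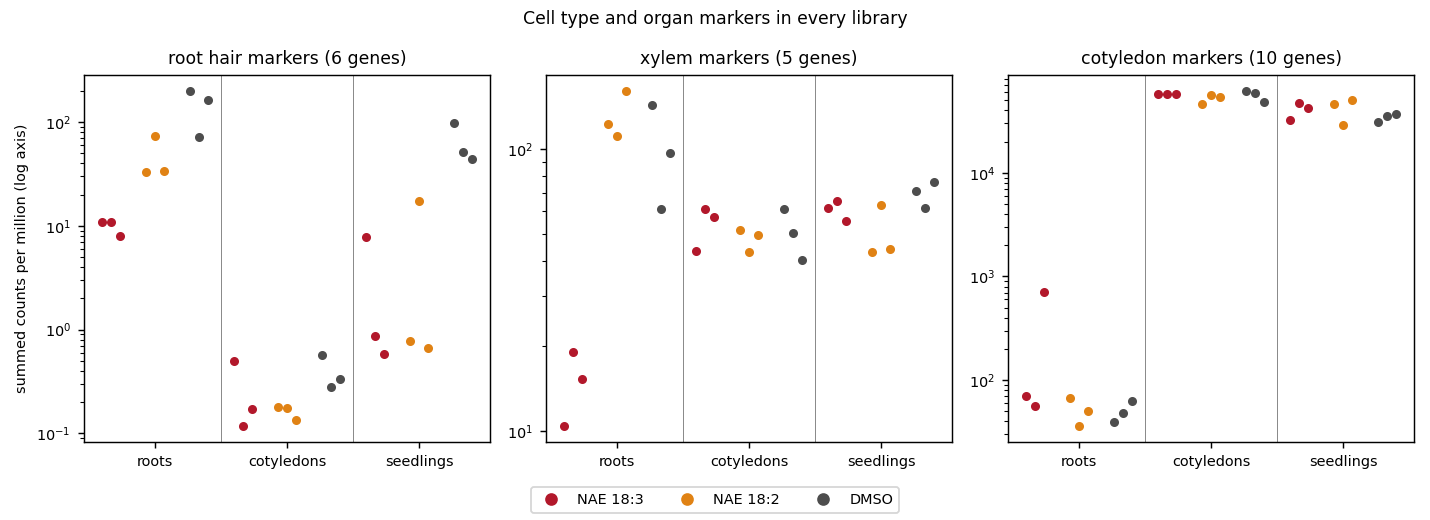
Summed CPM of 6 root hair, 5 xylem and 10 cotyledon (photosynthesis) markers in every library, on log axes, from left to right for NAE 18:3, for NAE 18:2 and for DMSO in each organ. Among root libraries, root hair markers are lowest under NAE 18:3 (7.91 to 10.9 CPM), and 1 library of NAE 18:3 roots stands out with 706 CPM of cotyledon markers.

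XTH31 (AT3G44990), a hydrolysis-type member abundant in both DMSO roots and DMSO cotyledons, fell in steps in roots. It had 3.5, 3.36 and 3.41 CPM in NAE 18:3 roots and 12, 16.8 and 15.3 CPM in NAE 18:2 roots, against 76.6, 91.4 and 59.1 CPM in DMSO roots. The 3 groups did not overlap, and the log2 fold changes were -4.65 ± 0.21 (adjusted p = 4.62e-06 in edgeR) for NAE 18:3 and -2.42 ± 0.18 (adjusted p = 0.000123) for NAE 18:2. XTH32, its relative of the same subgroup, had 0.410, 0.272 and 0.346 CPM in NAE 18:3 roots, against 2.05, 3.26 and 2.28 CPM in DMSO roots (-3.06 ± 0.35), and 1.29, 1.25 and 2.17 CPM in NAE 18:2 roots, where it was not called (-0.75 ± 0.31, adjusted p = 0.0879). XTH33 (AT1G10550), predicted to be anchored in the plasma membrane, had 0.0494 to 0.0745 CPM in NAE 18:3 roots and 0.104 to 0.265 CPM in NAE 18:2 roots, against 5.73, 7.64 and 1.44 CPM in DMSO roots, and was called lower under both.

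XTH8, XTH15, XTH16, XTH17, XTH20, XTH21 and XTH28 were called lower in roots under NAE 18:3 and not under NAE 18:2, and the difference between the compounds itself was called for XTH15 and XTH20 alone. XTH17 had 0.634, 1.22 and 0.791 CPM in NAE 18:3 roots and a wide spread of 1.95, 16.9 and 3.33 CPM in NAE 18:2 roots, against 33.9, 25.1 and 16 CPM in DMSO roots. XTH20, known from vascular tissue, had 5.37, 15.5 and 8.11 CPM in NAE 18:3 roots and 62.3, 63.1 and 72.1 CPM in NAE 18:2 roots, against 66.7, 65.2 and 30.4 CPM in DMSO roots. The other 5 had log2 fold changes between -1.18 (XTH28) and -2.50 (XTH21) under NAE 18:3. The calls of XTH16 and XTH21 were the weak ones: XTH16 was lost without any 1 of the 6 libraries (adjusted p up to 0.0229), and XTH21 without any 1 but replicate 3 of NAE 18:3 roots (up to 0.0247). Without that library, which carried the cotyledon markers, 12 members were called lower and 2 higher.

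XTH19, known from growing roots, was lowest under NAE 18:2. It had 22.6, 42.3 and 38.0 CPM in NAE 18:3 roots and 16.9, 20.4 and 16.7 CPM in NAE 18:2 roots, against 69.3, 60.2 and 45.6 CPM in DMSO roots. Only the fall under NAE 18:2 was called (log2 fold change -1.75 ± 0.24, adjusted p = 0.00134 in edgeR), since under NAE 18:3 the change was -0.96 ± 0.24, and the difference between the compounds was not called (0.79 ± 0.24, adjusted p = 0.0219). XTH18, its genomic neighbour and the leading member of DMSO roots, had 17.6, 73.5 and 45.0 CPM in NAE 18:3 roots and 151, 138 and 101 CPM in NAE 18:2 roots, against 102, 83.1 and 45.7 CPM in DMSO roots, and was called in neither.

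The members that rose in roots were the touch-inducible XTH22 (TCH4), its relatives XTH23 and XTH24, and XTH29 (AT4G18990). XTH22 had 133, 237 and 201 CPM in NAE 18:3 roots and 89.4, 43.9 and 55.2 CPM in NAE 18:2 roots, against 17.3, 15.9 and 7.71 CPM in DMSO roots. All treated libraries were above all DMSO libraries, with log2 fold changes of 3.61 ± 0.38 (adjusted p = 0.000111 in edgeR) for NAE 18:3 and 2.14 ± 0.36 (adjusted p = 0.00326) for NAE 18:2. In NAE 18:3 roots XTH22 alone made up 28.4% of the family's summed CPM per kb.

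XTH23, known from lateral root growth under salt, had 25.3, 58.7 and 44.1 CPM in NAE 18:3 roots and 206, 153 and 143 CPM in NAE 18:2 roots, against 13.4, 14.3 and 12 CPM in DMSO roots. The log2 fold changes were 1.5 ± 0.28 and 3.60 ± 0.30, both called without any 1 library. XTH24 (MERI5B), first described from meristems, had 11.9, 40.0 and 22.5 CPM in NAE 18:3 roots, overlapping with the 17.5, 24.5 and 19.2 CPM of DMSO roots, and 140, 178 and 98.2 CPM in NAE 18:2 roots (2.71 ± 0.42 against DMSO). XTH29, at a low level throughout, rose under NAE 18:2, with 1.84, 0.946 and 1.12 CPM in NAE 18:2 roots against 0.317, 0.242 and 0.266 CPM in DMSO roots.

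Under NAE 18:2, leaving out 1 library ended the calls of XTH22 (replicate 1 of NAE 18:2 roots or replicate 2 of DMSO roots, adjusted p up to 0.0131), XTH24 (replicate 1 or 3 of DMSO roots, up to 0.0116) and XTH29 (any 1 but replicate 2 of NAE 18:2 roots, up to 0.0309). The 5 falls and the rise of XTH23 were called in all 6 of these fits.

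**Figure D5:**
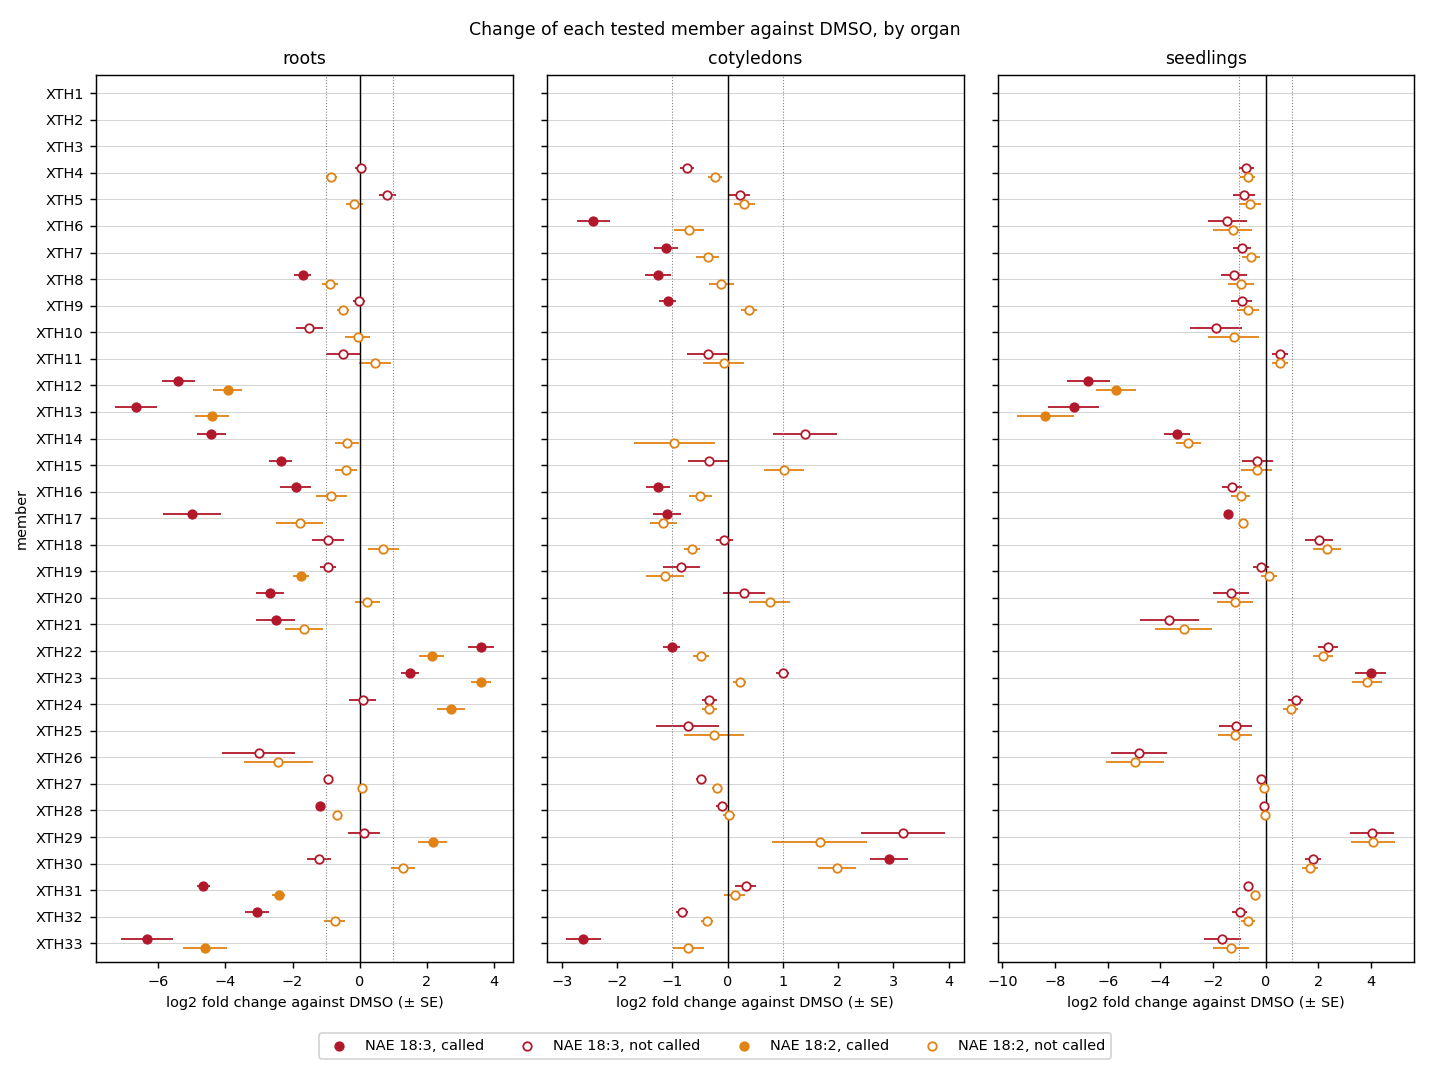
Log2 fold change against DMSO with its standard error for each tested member in roots, cotyledons and seedlings, with NAE 18:3 in red and NAE 18:2 in orange. Filled points were called, open points were not, and dotted lines mark -1 and 1. In roots XTH12, XTH13, XTH31 and XTH33 lie to the left under both compounds and XTH22 and XTH23 to the right, and in cotyledons no NAE 18:2 point is filled.

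Set against each other in roots, NAE 18:3 at its higher dose gave lower levels than NAE 18:2 for 9 of 27 tested members and a higher level for 1, where 15.3% of tested genes were called lower and 1.91% higher. The median log2 difference was -1.46 for the members and -0.04 for all tested genes. The lower members were XTH14 (-4.04 ± 0.43 SE), XTH20 (-2.89 ± 0.41), XTH24 (-2.62 ± 0.42), XTH30 (-2.52 ± 0.37), XTH32 (-2.32 ± 0.36), XTH31 (-2.24 ± 0.19), XTH23 (-2.1 ± 0.28), XTH29 (-2.05 ± 0.44) and XTH15 (-1.96 ± 0.35), and the higher one was XTH22 (1.47 ± 0.35).

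XTH30 differed between the compounds in roots. It had 10.9, 35.2 and 18.3 CPM in NAE 18:3 roots and 97.6, 131 and 107 CPM in NAE 18:2 roots, against 50.4, 38.2 and 43.4 CPM in DMSO roots. Neither difference from DMSO was called (log2 fold changes -1.22 ± 0.36 with adjusted p = 0.018 in edgeR, and 1.30 ± 0.36 with adjusted p = 0.0233), while the difference between the compounds was (adjusted p = 0.000941). The calls of XTH22 and XTH29 were each lost in 4 of 6 fits without 1 library, replicate 3 of NAE 18:3 roots among them for both, with adjusted p up to 0.0312 and 0.0191. Without that library 8 members were lower and 0 higher, and XTH22 was also lost without replicate 2 of NAE 18:3 roots or replicate 2 or 3 of NAE 18:2 roots.

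In NAE 18:3 cotyledons most called members were lower than in DMSO cotyledons. Of 25 tested members, 1 was higher and 8 were lower in NAE 18:3 cotyledons than in DMSO cotyledons, where 6.33% of 19444 tested genes were called higher and 2.49% lower. The median log2 fold change was -0.48 for the members and -0.02 for all tested genes. The summed level of the family was 1616, 1544 and 1491 CPM in NAE 18:3 cotyledons and 2309, 2367 and 2197 CPM in DMSO cotyledons, with no overlap. Of the 9 called members, XTH8, XTH16, XTH17 and XTH33 were also called lower in NAE 18:3 roots, and XTH22 was called higher there.

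XTH6 had 4.17, 5.18 and 4.30 CPM in NAE 18:3 cotyledons, 13.7, 18.8 and 11.9 CPM in NAE 18:2 cotyledons and 33.3, 25.6 and 14.4 CPM in DMSO cotyledons. It fell under NAE 18:3 (log2 fold change -2.43 ± 0.30, adjusted p = 0.000374 in edgeR). XTH33 fell as much, to 1.48, 2.1 and 2.06 CPM in NAE 18:3 cotyledons, against 12, 10.3 and 12.2 CPM in DMSO cotyledons (-2.61 ± 0.31). XTH9, the leading member of DMSO cotyledons, had 207, 134 and 196 CPM in NAE 18:3 cotyledons and 488, 528 and 440 CPM in NAE 18:2 cotyledons, against 365, 389 and 377 CPM in DMSO cotyledons (-1.08 ± 0.15 for NAE 18:3).

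XTH7, XTH8, XTH16, XTH17 and XTH22 were the other falls, with log2 fold changes between -1.01 (XTH22) and -1.26 (XTH8 and XTH16). XTH22 had 151, 158 and 143 CPM in NAE 18:3 cotyledons and 234, 219 and 186 CPM in NAE 18:2 cotyledons, against 328, 347 and 232 CPM in DMSO cotyledons. The single rise was XTH30, at 20.9, 20.7 and 14.2 CPM in NAE 18:3 cotyledons and 12.4, 4.97 and 11.2 CPM in NAE 18:2 cotyledons, against 2.98, 2.07 and 2.28 CPM in DMSO cotyledons. Its log2 fold change was 2.92 ± 0.35 for NAE 18:3 (adjusted p = 0.000304 in edgeR) and 1.98 ± 0.35 for NAE 18:2, where it was not called (adjusted p = 0.0143). XTH23 lay on the edge of the call, at 180, 163 and 138 CPM in NAE 18:3 cotyledons against 76.0, 85.9 and 78.1 CPM in DMSO cotyledons (1.00 ± 0.12, adjusted p = 0.000241), and it was called with the size factors or the test of DESeq2 and without a filter on low counts.

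The calls of XTH6, XTH30 and XTH33 held without any 1 library. Those of XTH7, XTH8, XTH9, XTH16, XTH17 and XTH22 were each lost in 1 to 5 of 6 such fits, with an adjusted p of up to 0.0383 (XTH17), and each library but replicate 3 of DMSO cotyledons ended at least 1 of them, so that 4 to 8 members were called lower.

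NAE 18:2 left no member of the family called in cotyledons, higher or lower, where 0.617% of tested genes were called higher and 0.108% lower. At an unadjusted p below 0.05, 13 of 25 tested members and 4966 of 19444 tested genes differed, and DESeq2's Wald test called 1 member higher (XTH30) and 1 lower (XTH17). Fits without 1 library called between 3 (without replicate 2 of DMSO cotyledons) and 283 (without replicate 2 of NAE 18:2 cotyledons) of all tested genes higher, and between 0 and 44 lower. Libraries with the same replicate number deviated together in this comparison, and with the replicate number as a block XTH15 was called higher (log2 fold change 1.05, adjusted p = 0.00959 in edgeR) and XTH19 lower (-1.14, adjusted p = 0.00407). XTH15 had 30.9, 27.7 and 18.7 CPM in NAE 18:2 cotyledons against 17.1, 12.2 and 9.35 CPM in DMSO cotyledons, and XTH19 had 5.53, 12.5 and 10.2 CPM against 13.1, 25.9 and 23.8 CPM. The 4 seed storage and oleosin markers summed to 191 CPM in replicate 3 of NAE 18:2 cotyledons and to at most 1.20 CPM in the other 8 cotyledon libraries.

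Directly compared in cotyledons, NAE 18:3 was lower than NAE 18:2 for XTH6, XTH8, XTH9 and XTH33, 4 of 25 tested members, and edgeR called none higher, where 0.417% of tested genes were called lower and 3.91% higher. The log2 differences were -1.73 ± 0.30, -1.14 ± 0.23, -1.47 ± 0.15 and -1.90 ± 0.31 (SE). For 16 members the unadjusted p was below 0.05, and DESeq2's Wald test called none higher either and called XTH15 lower (-1.37, adjusted p = 0.00122). Only XTH9 was called without any 1 library, and 1 to 3 members were called lower in those fits, XTH8 having been lost in all 6.

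Whether an effect differed between the organs was tested directly, as the effect in roots minus the effect in cotyledons. For NAE 18:3, 1 of 30 tested members was higher and 5 were lower, where 5.56% of 21643 tested genes were called higher and 9.86% lower, and the median was -0.83 for the members and 0.13 for all tested genes. XTH22 had the positive difference, 4.78 ± 0.50 on the log2 scale (adjusted p = 7.35e-07 in edgeR), having risen in roots and fallen in cotyledons. XTH14, XTH31, XTH30, XTH17 and XTH32 had negative ones, of -5.65 ± 0.82, -4.82 ± 0.28, -3.99 ± 0.53, -3.74 ± 0.74 and -2.07 ± 0.42. All 6 calls held without any 1 of the 12 libraries. Whole seedlings did not show the high cotyledon level of XTH22. It had 18.7 CPM per kb in DMSO seedlings, against 190 CPM per kb in DMSO cotyledons and 8.57 CPM per kb in DMSO roots. In NAE 18:3 and NAE 18:2 seedlings it had 97.6 and 84.7 CPM per kb, so no fall was seen there. Why seedlings and dissected cotyledons differed was not tested.

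XTH31, which fell in roots, had 162, 202 and 146 CPM in NAE 18:3 cotyledons and 154, 123 and 155 CPM in NAE 18:2 cotyledons, against 149, 99.0 and 155 CPM in DMSO cotyledons. The 3 cotyledon groups overlapped.

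For NAE 18:2, 3 of 30 tested members had a higher effect in roots than in cotyledons and 2 a lower one, where 1.92% of tested genes were called higher and 1.01% lower. The medians were -0.45 for the members and 0.05 for all tested genes. The higher ones were XTH23 (3.44 ± 0.54), XTH24 (3.09 ± 0.46) and XTH22 (2.69 ± 0.49), and the lower ones XTH31 (-2.49 ± 0.27) and XTH33 (-3.84 ± 0.91). XTH33 was lost in 11 of 12 fits without 1 library (adjusted p up to 0.0361), and the other 4 in none.

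In whole seedlings the root hair members were lower as well, with few calls. Of 30 tested members, NAE 18:3 gave 1 higher and 4 lower, where 1.28% of 20911 tested genes were called higher and 0.631% lower, and NAE 18:2 gave 0 higher and 2 lower, where 0.674% were called higher and 0.206% lower. The median log2 fold changes were -0.90 and -0.67, against -0.03 for all tested genes under either compound. For NAE 18:2, 16 of 30 members had an unadjusted p below 0.05, and DESeq2's Wald test called 5 higher. With upper quartile scaling XTH23 was also called higher under NAE 18:2 and XTH22 under NAE 18:3, giving 1 higher and 2 lower, and 2 higher and 4 lower. Over all tested genes, fits without 1 library called between 12 and 1658 higher and between 4 and 528 lower under NAE 18:3 (268 and 132 with all libraries), and between 10 and 806 higher and between 0 and 372 lower under NAE 18:2 (141 and 43), the most without replicate 1 of NAE 18:3 seedlings and without replicate 2 of NAE 18:2 seedlings, and the fewest higher without replicate 1 of DMSO seedlings.

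XTH12 had 0.0624, 0.168 and 0 CPM in NAE 18:3 seedlings and 0.148, 0.197 and 0.132 CPM in NAE 18:2 seedlings, against 15.3, 4.22 and 6.29 CPM in DMSO seedlings. XTH13 had 0.0936, 0.0673 and 0 CPM in NAE 18:3 seedlings and 2 counts in the 3 NAE 18:2 libraries together, against 19.0, 3.5 and 4.98 CPM in DMSO seedlings, which makes it 409-fold lower under NAE 18:2 (95% counting interval 113 to 3384). XTH14 and XTH17 were called lower under NAE 18:3 (log2 fold changes -3.36 ± 0.48 and -1.42 ± 0.15), and XTH14 had 3.71, 2.05 and 1.19 CPM in NAE 18:3 seedlings and 2.07, 4.32 and 2.86 CPM in NAE 18:2 seedlings, against 34.3, 20.4 and 16.5 CPM in DMSO seedlings.

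XTH23 rose in NAE 18:3 seedlings, at 129, 495 and 269 CPM, against 17.5, 19.4 and 18.8 CPM in DMSO seedlings (log2 fold change 3.99 ± 0.58, adjusted p = 0.00799 in edgeR). In NAE 18:2 seedlings it had 343, 118 and 344 CPM and missed the call (3.85 ± 0.58, adjusted p = 0.0116). XTH18, XTH22, XTH24, XTH29 and XTH30 were not called under either compound. They were above every DMSO seedling library in all 6 treated libraries. The share of all tested genes that did the same was not counted, so this cannot be read as particular to these members.

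The seedling libraries of a treatment were uneven in their marker sums. The 6 root hair markers summed to 7.80, 0.875 and 0.576 CPM in NAE 18:3 seedlings and 0.777, 17.3 and 0.660 CPM in NAE 18:2 seedlings, against 98.0, 51.4 and 44.1 CPM in DMSO seedlings, with at most 1 of the 6 at 0 in a library. XTH20 was highest in the same treated libraries as these markers, with 21.3, 7.10 and 11.2 CPM in NAE 18:3 seedlings and 5.89, 31.8 and 5.41 CPM in NAE 18:2 seedlings, against 29.5, 35.0 and 32.9 CPM in DMSO seedlings. XTH12 was highest in replicate 2 of each treatment, with 5 and 7 counts, and under NAE 18:3 this was not the library with the most marker counts. The 10 root markers summed to 4123, 2604 and 2864 CPM in NAE 18:3 seedlings and 2936, 4054 and 2948 CPM in NAE 18:2 seedlings, against 4437 to 5115 CPM in DMSO seedlings. The 10 cotyledon markers summed to 32358, 47425 and 42576 CPM in NAE 18:3 seedlings and 46376, 28720 and 49850 CPM in NAE 18:2 seedlings, against 31229 to 36885 CPM in DMSO seedlings. Under each NAE, XTH23 was lowest in the library with the most root and the least cotyledon marker counts. The root marker sum did not separate the dissected organs, so it is a poor measure of root share. The seed storage and oleosin markers summed to 100.4 CPM in replicate 1 of DMSO seedlings, the DMSO library with the highest XTH12 and XTH13, to 1.03 and 0.699 CPM in the other DMSO seedling libraries, to at most 0.774 CPM in NAE 18:3 seedlings and to at most 14.0 CPM in NAE 18:2 seedlings. The part of organ share or seed remains in the seedling changes was not tested. Every seedling call was lost in 4 or 5 of 6 fits without 1 library (adjusted p up to 0.0471), leaving between 0 and 6 members called lower under NAE 18:3 and between 0 and 4 under NAE 18:2, and no member was called for NAE 18:2 with replicates 1 and 3 summed.

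Between NAE 18:3 and NAE 18:2 seedlings, edgeR called no member and 0% of tested genes in either direction. Of the 30 tested members 1 had an unadjusted p below 0.05, as had 690 of 20911 tested genes, and DESeq2's Wald test called no member either. The differences with their errors were wide for the members that stood out in roots, such as 0.20 ± 0.37 for XTH22, -0.43 ± 0.46 for XTH14 and 0.14 ± 0.51 for XTH23 on the log2 scale.

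Other members were called by edgeR in no comparison with DMSO. XTH4, an abundant member known from secondary wall formation, had 82.9, 88.8 and 105 CPM in NAE 18:3 roots and 36.1, 54.5 and 47.3 CPM in NAE 18:2 roots, against 81.2, 83.4 and 74.0 CPM in DMSO roots, and its largest change was below 1 on the log2 scale. XTH27 (EXGT-A3), known from the xylem of leaf veins, differed between NAE 18:3 and DMSO roots by -0.93 ± 0.12 (adjusted p = 0.000198 in edgeR), under the size needed for a call. XTH5, XTH10, XTH11 (AT3G48580), XTH18, XTH25 and XTH26 were not called either, which does not show that they did not differ. DESeq2's Wald test called XTH18 higher (log2 fold changes 2.04 and 2.34) and XTH26 lower (-4.86 and -4.96) in NAE 18:3 and NAE 18:2 seedlings, and XTH10 lower in NAE 18:3 roots (-1.5), which upper quartile scaling in edgeR also did.

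The other genes of xyloglucan synthesis and trimming were taken as a list of 20 genes: backbone glucan synthases (CSLC4, CSLC5, CSLC6, CSLC8 and CSLC12), xylosyltransferases (XXT1 to XXT5), galactosyl-, galacturonosyl- and fucosyltransferases (MUR3, XLT2, XUT1 and FUT1), the glycosidases XYL1, BGAL10 and AXY8, and the acetylation genes AXY4, AXY4L and AXY9. In roots NAE 18:3 gave 1 higher and 4 lower of 20 tested and NAE 18:2 gave 0 higher and 1 lower, and in cotyledons NAE 18:3 gave 0 higher and 2 lower of 19 tested and NAE 18:2 gave 0 in edgeR, with 5 at an unadjusted p below 0.05. In seedlings edgeR called 0 of 20 under either compound, with 8 under NAE 18:3 and 7 under NAE 18:2 at an unadjusted p below 0.05. These counts stand beside 5.94% of all tested genes called higher and 16.8% lower in NAE 18:3 roots, 5.68% higher and 3.03% lower in NAE 18:2 roots, and 6.33% higher and 2.49% lower in NAE 18:3 cotyledons. The median log2 fold changes of the list were -0.17 and -0.20 in roots for NAE 18:3 and NAE 18:2, and -0.38 and -0.19 in cotyledons.

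XXT1 (AT3G62720), which adds the first xylose units, moved in opposite directions in the organs. It had 47.9, 62.3 and 60.2 CPM in NAE 18:3 roots against 25.1, 21.3 and 15.7 CPM in DMSO roots, and 22.9, 22.9 and 24.3 CPM in NAE 18:3 cotyledons against 61.1, 67.3 and 51.7 CPM in DMSO cotyledons. The difference between the organs was 2.79 ± 0.22 for NAE 18:3 (adjusted p = 2.89e-08 in edgeR) and 1.45 ± 0.22 for NAE 18:2. XLT2 (AT5G62220) fell under NAE 18:3 in both organs, by log2 fold changes of -1.12 ± 0.25 in roots and -1.32 ± 0.13 in cotyledons, and under NAE 18:2 in roots (-1.26 ± 0.25).

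AXY4 (AT1G70230), which acetylates xyloglucan, had 1.30, 1.49 and 2.13 CPM in NAE 18:3 roots and 7.58, 18.9 and 10.9 CPM in NAE 18:2 roots, against 19.6, 17.9 and 23.4 CPM in DMSO roots (-3.84 ± 0.37 for NAE 18:3). CSLC12 (AT4G07960, -2.66 ± 0.47) and XUT1 (AT1G63450, -3.53 ± 0.79), a root hair enzyme, were the other falls in NAE 18:3 roots. Between the compounds in roots, XUT1 (-3.27 ± 0.79) and AXY4 (-3.08 ± 0.37) were lower under NAE 18:3. The effect in roots exceeded that in cotyledons for CSLC4 (AT3G28180) under NAE 18:3 (1.40 ± 0.22) and NAE 18:2 (1.15 ± 0.21), and was below it for CSLC12 (-1.61 ± 0.46) and AXY4 (-2.85 ± 0.43) under NAE 18:3. In DMSO roots against DMSO cotyledons, FUT1 (AT2G03220, 1.06 ± 0.14) and XUT1 (5.51 ± 0.97) were higher and XXT1 (-1.52 ± 0.16), XLT2 (-1.38 ± 0.29) and AXY8 (AT4G34260, -1.98 ± 0.18) were lower.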

How the data were processed

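RNA was measured by stranded poly(A) sequencing of 27 libraries, 3 in each of 9 groups. Per the labels and the study's methods, reads were trimmed with Trimmomatic and aligned with STAR to TAIR10, and the authors deposited a table of raw read counts per gene, which was used here. A second deposited table held the same counts divided by 1 constant per library and was not used. Whether reads were counted by strand is not given in the sources used here.

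Library totals lay between 17781269 and 38635934 counts. CPM values (counts scaled to library size) used trimmed means of M values over all 27 libraries. Treatments were compared within an organ (9 libraries) and organs in a fit of all 27 libraries, with filterByExpr and the quasi-likelihood test of edgeR 4.0.16 in R 4.3.3. Benjamini-Hochberg adjustment ran over every tested gene. A gene was called at an adjusted p below 0.01 and an absolute log2 fold change above 1. Alternatives were the size factors or the Wald test of DESeq2 1.42.0, upper quartile scaling, no filter, a replicate block and fits without 1 library. The fits were tested on simulated data. The study's methods call the 3 libraries of a group biological replicates, and the labels do not say how they were kept apart, so p-values measure the spread between these libraries. Intervals and floors cover counting error only.

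Replicate numbers are shared between groups. Deviations of libraries with the same number were correlated above 0.1 in every pair for NAE 18:2 and DMSO cotyledons alone (0.107 to 0.329), so the blocked result stands beside that comparison. All 33 members were named, with a list of 20 other xyloglucan genes, and both, like the markers, were chosen with earlier results of these data known. Positions, transcript lengths and sequences are from RefSeq (TAIR10.1), in which all 33 identifiers and names matched.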

Additional observations from a re-analysis of the deposited data

Results flagged for a closer look

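In 11 cases the effect on a member differed between roots and cotyledons by a test of the difference itself (effect in roots minus effect in cotyledons, log2 scale, edgeR). For NAE 18:3 these were XTH22 (4.78), XTH14 (-5.65), XTH17 (-3.74), XTH30 (-3.99), XTH31 (-4.82) and XTH32 (-2.07). For NAE 18:2 they were XTH22 (2.69), XTH23 (3.44), XTH24 (3.09), XTH31 (-2.49) and XTH33 (-3.84). XTH22 and XTH31 are on both lists, which share the DMSO libraries. In cotyledons XTH14 was at most 0.897 CPM in any library, so its effect there rests on few counts.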

How the results depend on the processing

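No called member changed direction under any alternative. Among the values of single members, 3896 stayed on the same side of the call, 132 no longer passed and 88 newly passed. Of the counts of called members, 214 stayed within 1.5 times the main count and 78 did not. With DESeq2's Wald test, NAE 18:2 cotyledons had 1 higher and 1 lower, NAE 18:3 cotyledons 3 higher, NAE 18:3 against NAE 18:2 roots 2 higher, NAE 18:2 seedlings 5 higher and 4 lower, NAE 18:3 seedlings 6 higher and 7 lower, and the NAE 18:3 effect in roots against cotyledons 3 higher and 10 lower. With DESeq2 size factors in edgeR, NAE 18:3 cotyledons had 2 higher. With upper quartile scaling, NAE 18:3 against NAE 18:2 roots had 2 higher, NAE 18:2 seedlings 1 higher and NAE 18:3 seedlings 2 higher. Without a filter on low counts, NAE 18:3 cotyledons had 3 higher, NAE 18:3 against NAE 18:2 roots 0 higher and the NAE 18:2 effect in roots against cotyledons 1 lower.

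With a replicate block, NAE 18:2 cotyledons had 1 higher and 1 lower, NAE 18:3 against NAE 18:2 roots 0 higher, NAE 18:2 seedlings 0 lower, NAE 18:3 seedlings 0 higher and 0 lower, and the NAE 18:2 effect in roots against cotyledons 1 lower. Apart from NAE 18:2 and DMSO cotyledons, correlations between libraries with the same number ranged from -0.788 to 0.498. What such libraries share beyond the number is not given in the labels. In NAE 18:3 against NAE 18:2 cotyledons (0.0986 to 0.128) and in DMSO roots against DMSO cotyledons (0.0652 to 0.157) every library correlated best with its own number, and in the first of these the block called XTH15 lower (-1.44, adjusted p = 0.00103 in edgeR), as did DESeq2. Over all genes the block left 4 higher and 0 lower in NAE 18:2 seedlings and 7 and 0 in NAE 18:3 seedlings, and gave 157 and 56 in NAE 18:2 cotyledons and 819 and 373 in NAE 18:2 roots. Summing replicates 1 and 3 of NAE 18:2 seedlings left 0 members lower, and 25 genes higher and 0 lower over all genes.

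Leaving out 1 library gave, for members called higher, 0 to 1 in NAE 18:2 cotyledons, 1 to 3 in NAE 18:3 cotyledons, 2 to 4 in NAE 18:2 roots, 0 to 2 in NAE 18:3 against NAE 18:2 roots, 0 to 4 in NAE 18:2 seedlings, 0 to 5 in NAE 18:3 seedlings and 1 to 2 for the NAE 18:3 effect in roots against cotyledons. For members called lower it gave 4 to 8 in NAE 18:3 cotyledons, 1 to 3 in NAE 18:3 against NAE 18:2 cotyledons, 5 to 8 in NAE 18:2 roots, 0 to 4 in NAE 18:2 seedlings, 0 to 6 in NAE 18:3 seedlings and 1 to 2 for the NAE 18:2 effect in roots against cotyledons. Over all genes such fits called 281 to 532 lower in NAE 18:3 cotyledons, 425 to 629 higher and 21 to 73 lower in NAE 18:3 against NAE 18:2 cotyledons, 640 to 1150 higher and 262 to 801 lower in NAE 18:2 roots, 288 to 595 higher in NAE 18:3 against NAE 18:2 roots, and 206 to 556 higher and 84 to 319 lower for the organ difference of NAE 18:2. Where a fit without 1 library leaves 2 in a group, it also has fewer samples. Upper quartile scaling shifted the all-gene median on the log2 scale by 0.29 in DMSO roots against DMSO cotyledons and by -0.12 in NAE 18:2 roots, -0.11 in NAE 18:2 seedlings, -0.15 in NAE 18:3 seedlings, 0.11 in NAE 18:3 against NAE 18:2 roots, and -0.18 and -0.12 in the organ differences for NAE 18:2 and NAE 18:3. Over all genes, DESeq2's Wald test called 366 higher and 124 lower in NAE 18:2 cotyledons (edgeR 120 and 21), 1405 and 468 in NAE 18:2 seedlings (141 and 43), 1821 and 990 in NAE 18:3 seedlings (268 and 132), 977 and 148 in NAE 18:3 against NAE 18:2 cotyledons (760 and 81), 1441 and 923 in NAE 18:2 roots (1143 and 610), 958 and 2740 for the organ difference of NAE 18:3 (1203 and 2133) and 672 and 467 for that of NAE 18:2 (415 and 218). Upper quartile scaling gave 1009 and 827 in NAE 18:2 roots, 654 and 2850 in NAE 18:3 against NAE 18:2 roots (384 and 3084), 308 and 352 for the organ difference of NAE 18:2 and 769 and 2370 for that of NAE 18:3, where DESeq2 size factors gave 798 and 2355. Members near 0 (XTH1 to XTH3, and XTH21, XTH25 and XTH26 outside their organ) are limited by depth.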

Other observations

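Whole seedlings could be set beside their dissected parts. With DMSO, XTH18 had 25.4, 28.2 and 21.8 CPM in seedlings, below all 6 organ libraries (45.7 to 102 CPM), and XTH31 had 229, 229 and 201 CPM, above all 6 (59.1 to 155 CPM). Of 21643 tested genes 3.44% were below and 4.22% above every DMSO organ library. XTH24 was above every organ library with NAE 18:3 and XTH31 with NAE 18:2, where 3.86% and 2.13% of genes were. The part of tissue outside the collected organs, such as the hypocotyl, was not tested.

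Some neighbouring genes moved in opposite directions. XTH23 and XTH14 lie 363 bases apart on the same strand of chromosome 4, and in NAE 18:3 roots XTH23 rose (log2 fold change 1.5) while XTH14 fell (-4.42). XTH13, XTH25 and XTH22 follow each other on chromosome 5. In NAE 18:3 roots XTH13 fell (-6.65) and XTH22 rose (3.61), while XTH25 was at 0 in every library of NAE 18:3 roots and DMSO roots. The neighbours XTH24, XTH18 and XTH19 were not called in NAE 18:3 roots. In NAE 18:2 roots XTH24 rose (2.71) and XTH19 fell (-1.75). In NAE 18:3 seedlings DESeq2's Wald test called XTH24 (1.16) and XTH18 (2.04) both higher.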
